A study of Mus musculus with 36 samples.

Results

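A set of 58 developmental homeobox and paired box genes outside the Hox clusters was followed through RNA-seq of mouse embryonic stem cells (ESCs) and epiblast-like cells (EpiLCs). The set was fixed by symbol as the PAX, LIM (Lhx, Isl and Lmx), sine oculis-related (Six2, Six3, Six4 and Six6), DLX, IRX, NKX and POU4 families and single genes such as Meis1, Meis2, En2, Msx2, Gsc, Barx1 and Hhex. All 58 symbols were found among the 55401 genes of the count files. The set holds 8 PAX, 12 LIM, 4 sine oculis-related, 6 DLX, 6 IRX, 4 NKX and 3 POU4 genes and 15 others.

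The 36 libraries fell into 12 groups of 3, all labelled as C57BL/6. J2WT is the wild-type (WT) line matched to J2KO, which lacks JARID2, a subunit of the PRC2.2 form of Polycomb repressive complex 2. PclWT is the WT line matched to TKO, which lacks PCL1 to PCL3 (the proteins of Phf1, Mtf2 and Phf19, subunits of PRC2.1), and to QKO, which lacks PCL1 to PCL3 and JARID2. These 5 genotypes were measured as ESCs and as EpiLCs. A further WT group and Pcgf2/4 KO cells, without 2 PRC1 subunits, were measured as EpiLCs only, and the labels do not say which line that WT group is. ESCs were kept in serum, LIF and 2i (the inhibitors CHIRON99021 at 3 µM and PD0325901 at 1 µM), and EpiLCs were made from them over 2 days with activin A at 20 ng/mL, bFGF at 12 ng/mL and 1% KSR on fibronectin. It is not stated whether the libraries within a group are separate cultures or clones, so the p-values measure the spread between these libraries only.

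Homeodomain and paired-domain proteins bind DNA and specify position and cell type in the embryo. PAX, LIM, POU4, IRX and NKX factors pattern the neural tube and its neurons, MEIS proteins are cofactors of other homeodomain proteins, and MSX, DLX, PITX and BARX factors act in the head, limbs and gut. Most genes of these families are textbook Polycomb targets in pluripotent cells: their CpG-rich promoters carry the repressive mark H3K27me3, which PRC2 deposits, and they are transcribed at most weakly until a lineage is chosen.

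Promoter windows of 5 genes the results turn on are shown. Meis2, Pou4f2 and Meis1 were called in the most comparisons, Irx2 stands for the IRX family, and Six4 was the most highly expressed member. Each window is the 250 bases before the gene's RefSeq start on GRCm38, 5′ to 3′ on the gene's strand, with CG dinucleotides in capitals.
Meis2: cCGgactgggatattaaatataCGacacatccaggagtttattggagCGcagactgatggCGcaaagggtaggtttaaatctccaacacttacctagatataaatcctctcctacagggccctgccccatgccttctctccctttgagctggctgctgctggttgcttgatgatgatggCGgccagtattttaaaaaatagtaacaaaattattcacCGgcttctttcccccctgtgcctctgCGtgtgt
Meis1: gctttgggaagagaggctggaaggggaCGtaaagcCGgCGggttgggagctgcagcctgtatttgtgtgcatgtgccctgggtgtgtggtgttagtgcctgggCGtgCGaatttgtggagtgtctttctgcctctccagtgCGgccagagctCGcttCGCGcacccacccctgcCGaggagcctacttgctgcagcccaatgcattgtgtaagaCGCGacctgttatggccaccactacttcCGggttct
Pou4f2: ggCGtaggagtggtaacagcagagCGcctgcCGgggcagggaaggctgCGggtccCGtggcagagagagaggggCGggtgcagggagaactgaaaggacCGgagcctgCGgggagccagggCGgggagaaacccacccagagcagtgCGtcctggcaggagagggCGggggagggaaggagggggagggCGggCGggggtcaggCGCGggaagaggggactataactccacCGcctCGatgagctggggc
Irx2: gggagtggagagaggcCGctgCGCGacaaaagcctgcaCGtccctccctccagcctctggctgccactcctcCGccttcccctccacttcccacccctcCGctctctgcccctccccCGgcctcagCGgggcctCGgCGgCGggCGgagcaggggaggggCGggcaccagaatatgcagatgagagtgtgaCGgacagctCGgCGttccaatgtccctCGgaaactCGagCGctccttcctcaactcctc
Six4: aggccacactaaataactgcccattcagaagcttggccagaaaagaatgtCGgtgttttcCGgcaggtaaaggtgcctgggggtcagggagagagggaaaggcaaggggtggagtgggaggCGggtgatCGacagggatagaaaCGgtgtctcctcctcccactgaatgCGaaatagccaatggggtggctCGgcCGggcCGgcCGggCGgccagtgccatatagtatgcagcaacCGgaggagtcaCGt

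The Meis2 window lies at chr2:116064620-116064869, minus strand, and holds 7 CG dinucleotides. It lies inside the annotated gene, whose 5′ end is at 116065839, so its count does not describe the bases before that end. The Meis1 window is at chr11:19018970-19019219, minus strand, with 13, and the Six4 window at chr12:73113426-73113675, minus strand, also with 13. Pou4f2 (chr8:78436648-78436897, minus strand) has 17 and Irx2 (chr13:72628570-72628819, plus strand) has 19. CG reads the same on both strands. Over the 32851 RefSeq windows of this length the median was 6, and 92.1% held at least 1. Windows with at least 19 made up 19.7% of them, and those with at least 7 made up 46.3%. A window was found for 45 of the 58 members, 77.6%, which is too few for a summary of the set.

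Counts in genes ran from 6784578 to 18026492 per library (median 10472704), and the J2WT and J2KO libraries were the deepest. Levels are CPM, counts in proportion to the library's total, scaled by TMM over all libraries, and RPKM, which divides by exon length, where genes are compared with each other. Replicate 1 of PclWT EpiLCs stood apart: 1281 and 1452 genes differed over 2-fold between it and replicates 2 and 3, against 1 gene between those, so results that rest on it are given with and without it. rRNA genes took 1.40% of replicate 1 of PclWT EpiLCs, and 0.406% and 0.372% of replicates 2 and 3. They took 4.28% of replicate 2 of QKO EpiLCs, and 0.424% and 0.488% of replicates 3 and 1. Replicate 2 of QKO ESCs was at 2.09% and replicate 1 of PclWT ESCs at 1.24%. Formative pluripotency markers summed to 952 to 1121 CPM in PclWT EpiLCs, against 3853 to 3923 in J2WT and 4115 to 4145 in WT EpiLCs, so the PclWT EpiLCs carried fewer of the transcripts that define the stage. Of the genes of the deleted proteins, Mtf2 read 418 to 422 CPM in PclWT ESCs, 41.3 to 45.6 in TKO and 35.8 to 39.2 in QKO ESCs, Phf1 read 6.20 to 9.42, 0.504 to 0.652 and 0.463 to 0.762, and Phf19 read 1.5 to 1.94, 0.869 to 1.51 and 0.109 to 0.695. Jarid2 mRNA remained at 409.7 to 413 CPM in J2KO against 443 to 467 in J2WT ESCs and at 385 to 401 in QKO ESCs. Pcgf2 read 61.6 to 67.6 CPM in Pcgf2/4 KO against 55.5 to 62.0 in WT EpiLCs, and Bmi1, which encodes PCGF4, 21.9 to 24.0 against 19 to 23.9. Reads were counted over whole genes, so these totals do not check the JARID2 and PCGF labels: a lesion that leaves the rest of a transcript would not show in them.

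Most of the set was close to silent. Only 20 of the 58 genes reached a mean of 1 RPKM in any group, and the number that did so ranged from 5 in WT EpiLCs to 13 in TKO EpiLCs. Their median ran from 0.0382 RPKM in J2WT ESCs to 0.219 RPKM in QKO EpiLCs, while that of all protein-coding genes was between 0.658 and 0.936 RPKM in every group. Evx2, a homeobox gene beside the HoxD cluster, had 1 read in all 36 libraries, Irx6 had 9, Emx2 12 and Nkx2-2 14. Fewer cells with a transcript and less transcript per cell cannot be told apart in these bulk samples.

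Six4, a regulator of muscle and sensory development, was the most abundant member by RPKM in 8 of the 12 groups, at 3.65 ± 0.211 RPKM (SD, n = 3) in J2WT ESCs and 14.6 ± 0.170 in J2WT EpiLCs. In the other 4 Meis2 (J2WT, J2KO and QKO ESCs) or Pou4f2 (TKO ESCs) was first. Six4 alone supplied 19.8% to 68.9% of the summed CPM of the set. En2, a patterning gene of the midbrain and hindbrain, had its highest level, 10.9 ± 0.407 RPKM, in J2KO EpiLCs, and was the other member at 1 RPKM or more in all 12 groups. Nkx6-2 reached this level in 11 groups, Irx2 in 10, Hhex in 9 and Pou4f1 in 8. Of the other families, 1 of 8 PAX genes (Pax8), 3 of 12 LIM genes (Lhx1, Lhx6 and Isl2), 1 of 6 DLX genes (Dlx3) and all 3 POU4 genes reached it in at least 1 group.

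**Figure D1:**
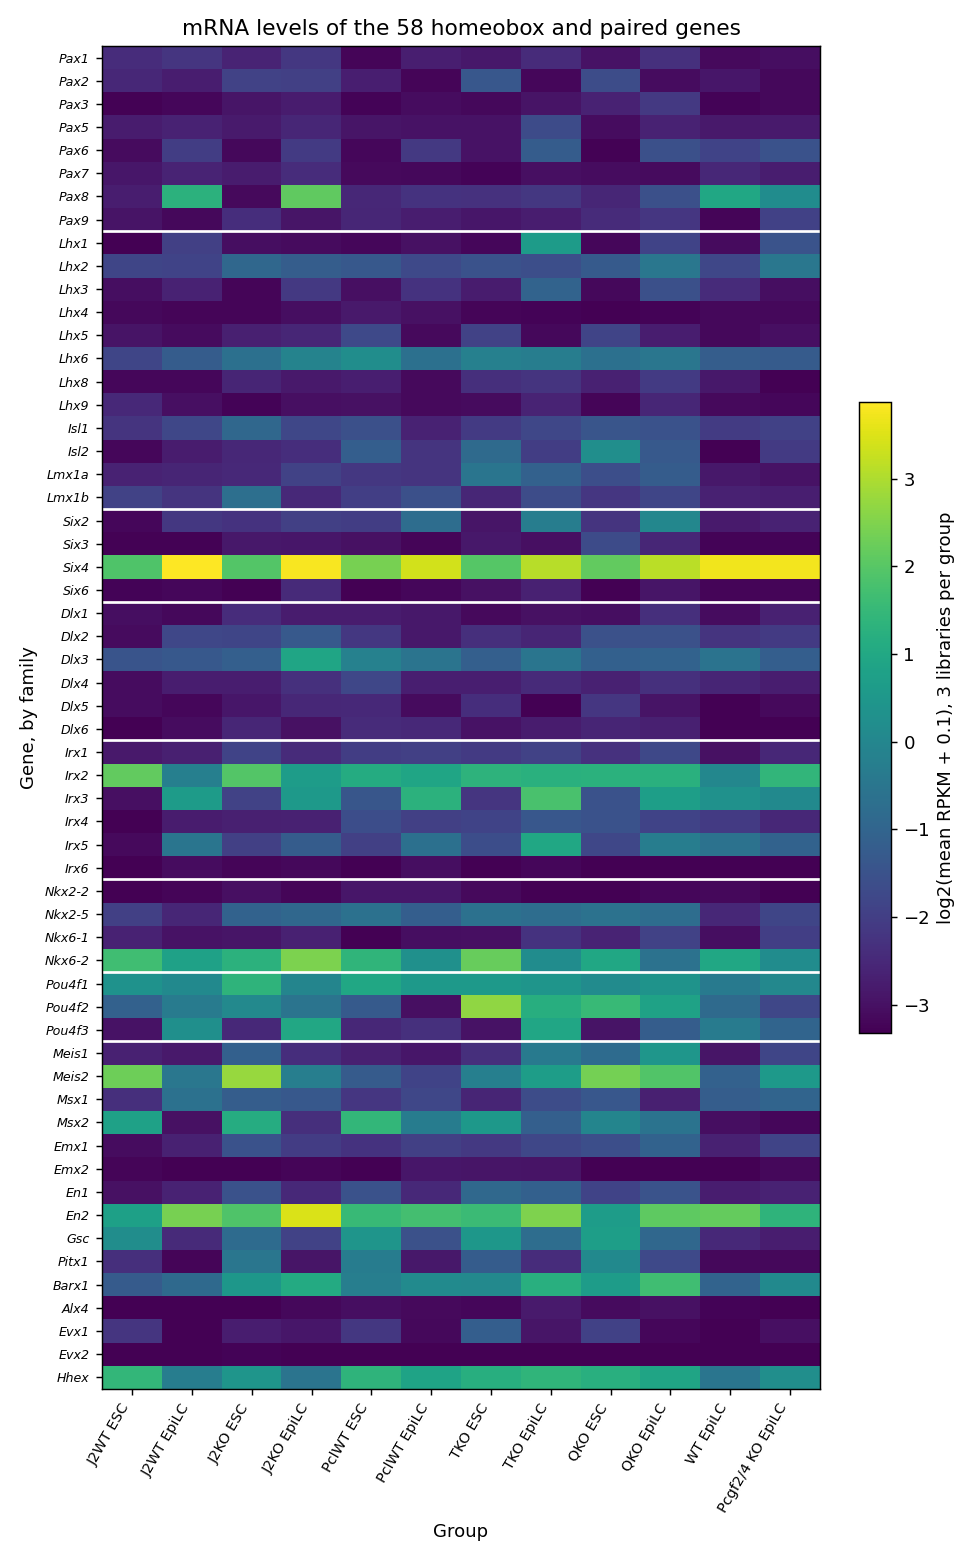
Each row is 1 of the 58 genes, grouped by family with white lines, and each column 1 of the 12 groups. Color gives log2 of the mean RPKM of 3 libraries plus 0.1; Six4 and En2 are bright in every column, and 38 of the 58 rows never reach 1 RPKM.

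Changes were tested with edgeR's quasi-likelihood test over all genes with a mean of at least 15 normalized counts in the libraries compared, and a gene was called at an adjusted p (Benjamini-Hochberg, over all genes tested) under 0.05 and a change of more than 2-fold. A total of 27 members were tested in at least 1 of 10 comparisons of 2 conditions, 7 in all 10, and 25 were called in at least 1. In single comparisons 4.59% to 20.9% of all genes were called. The share of all genes called in at least 1 of the 10 was not computed, so the 25 cannot be set against it. The 31 never tested had at most 247 reads over the 36 libraries and group means of at most 2.02 CPM. A gene read only in the group where it is high can pass the minimum through that group, so the counts below describe the members tested and are no test of the set. Where libraries of called genes are said not to overlap, this describes their values and adds no support to the call. The share of all genes without overlap was not computed. Meis2 was called in 8 of the 10 comparisons, Pou4f2 in 6 and Meis1 in 5.

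**Figure D2:**
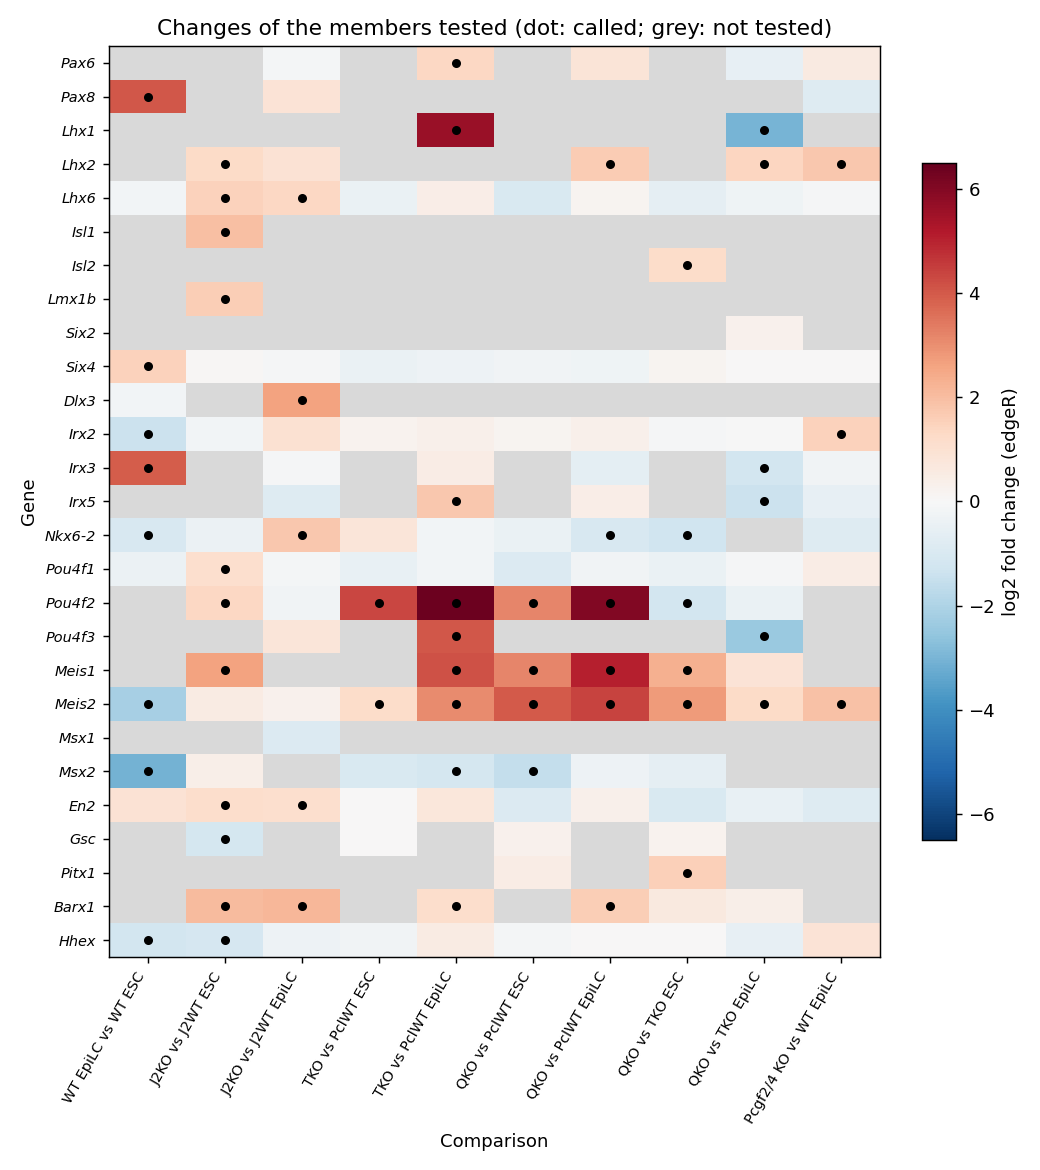
Rows are the 27 members that could be tested, columns the 10 comparisons, and color the log2 fold change from edgeR. Dots mark called changes and grey cells genes under the count minimum; Meis2, Meis1 and Pou4f2 are red in TKO and QKO at both stages where tested.

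The step from ESCs to EpiLCs was first taken over both WT lines, with line and stage in the model. Of 12 members tested, 3 were higher (11.5% of all 13523 genes tested were) and 5 lower (9.33% of all). Six4, Irx3 and Pax8 rose, and Msx2, Meis2, Irx2, Hhex and Nkx6-2 fell. The naive pluripotency markers fell, 8 of 8, and the formative markers rose, 6 of 6, in the same fit.

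Six4 read 42.0, 39.3 and 37.5 CPM in J2WT ESCs and 157, 160.4 and 158 in J2WT EpiLCs, and 48.0, 59.7 and 61.0 in PclWT ESCs against 75.4, 132 and 133 in PclWT EpiLCs. EpiLC libraries were above ESC libraries in both lines, with the lowest EpiLC value in the library that stood apart. With both lines fitted together, its log2 fold change was 1.5 ± 0.20 SE, adjusted p = 5.4e-05.

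Irx3, an Iroquois gene of neural and heart patterning, went from 0.0623, 0 and 0.126 to 3.53, 4.05 and 4.34 CPM in J2WT and from 0.776, 0.535 and 1.00 to 9.63, 5.32 and 4.70 in PclWT, a log2 fold change of 3.93 ± 0.43 SE, adjusted p = 1.2e-05 over both. The J2WT ESC libraries held 3 Irx3 reads together, so the J2WT ratio of 62.8 had a 95% counting interval of 21.2 to 307. Its neighbor Irx5 went from 2 reads to 89 in J2WT, a ratio of 43.6 (11.7 to 366).

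Pax8, a paired-box gene of thyroid and kidney, differed between the lines. J2WT libraries moved from 0.187, 0.387 and 0.315 CPM to 14.6, 15.5 and 13.0, whereas PclWT libraries read 0.388, 0.321 and 0.668 as ESCs and 0.438, 0.921 and 0.601 as EpiLCs. The other WT EpiLCs, whose line is not named, read 12.7, 10.5 and 10.8. Pax8 was thus high in 2 of the 3 WT EpiLC groups, and the difference of its stage change between lines (PclWT minus J2WT) was -5.06 ± 0.58 SE, adjusted p = 3.4e-05.

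Among the genes that fell, Msx2, a BMP-responsive gene of skull and limb, dropped from 5.48, 5.48 and 5.23 to 0.122, 0 and 0.128 CPM in J2WT and from 8.63, 8.24 and 8.68 to 2.30, 2.56 and 2.10 in PclWT. Its log2 fold change was -5.89 ± 0.33 SE, adjusted p = 2.5e-14 in J2WT and -1.90 ± 0.16 SE, adjusted p = 2.6e-04 in PclWT. No EpiLC library of either line reached its ESC libraries.

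Meis2, a cofactor of Hox and Pbx proteins, stood at 58.2, 59.6 and 53.3 CPM in J2WT ESCs and 7.49, 7.18 and 7.73 in J2WT EpiLCs. In PclWT it was at 3.59, 4.17 and 3.78 already in ESCs and at 1.20, 2.56 and 2.40 in EpiLCs. The WT lines thus entered the experiment with Meis2 levels that did not overlap, and the log2 fold changes were -2.92 ± 0.07 and -0.92 ± 0.28 (SE), the latter under the 2-fold limit.

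The falls of Irx2 and Hhex were larger in J2WT than in PclWT, by 2.30 ± 0.25 and 1.29 ± 0.23 (SE, log2). Irx2 fell from 14.7, 13.7 and 14.5 to 2.68, 2.15 and 2.68 CPM in J2WT and was at 5.82, 7.17 and 7.12 and 6.89, 6.65 and 4.10 in PclWT, where the groups overlapped. Hhex, a gene of anterior endoderm and liver, fell from 14.1, 14.6 and 11.5 to 4.14, 3.87 and 3.13 in J2WT, and in PclWT read 11.1, 12.5 and 13.9 in ESCs and 10.3, 7.27 and 8.41 in EpiLCs. Nkx6-2, a ventral neural tube gene, changed by -0.91 ± 0.14 and -1.19 ± 0.23 (SE, log2) in the J2WT and PclWT fits, and 12.9% of its exon bases are shared with Inpp5a, where reads cannot be assigned.

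Fitted alone, J2WT had 8 of 16 members higher and 4 lower, beside 30.2% of all genes called either way, and PclWT 1 of 11 higher and 2 lower, beside 15.2%. J2WT libraries were deeper than PclWT libraries, and more members passed the minimum there. Besides the genes above, J2WT alone called En2 (1.67 ± 0.10), Pax6 (3.12 ± 0.38), Msx1 (2.50 ± 0.33), Irx5 and Pou4f3 higher. Without replicate 1 of PclWT EpiLCs the fit over both lines called 4 of 13 members higher and 5 lower, beside 21.7% of all 13567 genes called, all 8 genes named above among them, and En2 was added at 1.09.

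**Figure D3:**
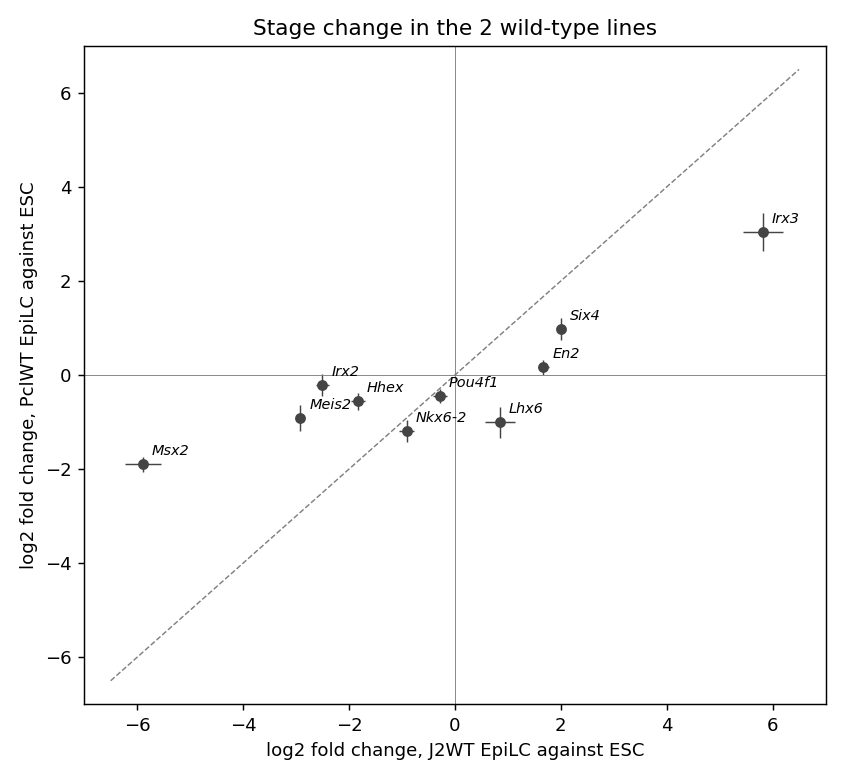
Log2 fold change of EpiLCs against ESCs in PclWT (vertical) and J2WT (horizontal) for members tested in both, with SE bars from edgeR and a dashed line of equal change. Irx3 and Six4 lie above 0 in both lines and Msx2, Meis2, Hhex and Irx2 below, and Lhx6 lies on opposite sides, at 0.85 in J2WT and -1.0 in PclWT, called in neither.

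A transcription start within 2000 bp of a site that the study lists as gaining PRC2 between ESCs and EpiLCs was found for 6 members: Irx2, Pou4f1, Pou4f2, Meis2, Msx2 and Hhex. They are 10.3% of the members, beside 1.82% of protein-coding genes near sites of this class only. Of the 6, Irx2, Meis2, Msx2 and Hhex were called lower over both WT lines, beside 9.33% of all genes tested. The share called lower among all genes near such sites was not computed. Pou4f1 and Pou4f2, POU factors of sensory neurons and of retinal ganglion cells, were not called lower: in J2WT their log2 fold changes were -0.28 ± 0.13 and 0.93 ± 0.22 (SE). In PclWT Pou4f1 changed by -0.45 ± 0.15 (SE). Pou4f2, with too few reads for a test there, went from 0.873, 0.642 and 1.45 CPM in PclWT ESCs to 0.219, 0 and 0 in PclWT EpiLCs.

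In J2KO ESCs 9 of the 16 members tested were higher, beside 7.01% of all 13432 genes, and 2 lower, beside 6.34%. The median log2 fold change was 1.12 over these members and 0.01 over all genes. The raised genes came from several families: Meis1, the sensory and retinal genes Pou4f1 and Pou4f2, the LIM genes Isl1, Lmx1b, Lhx6 and Lhx2, Barx1 and En2.

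Meis1 showed the largest change. It read 0.436, 0.709 and 0.693 CPM in J2WT ESCs and 3.33, 3.90 and 4.11 in J2KO ESCs, with no overlap, at a log2 fold change of 2.62 ± 0.23 SE, adjusted p = 2.9e-09. Of its exon bases 18.3% are shared with other genes and were not counted.

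Barx1, a gene of stomach and tooth development, went from 0.187, 0.774 and 0.378 to 1.78, 1.80 and 1.92 CPM (log2 fold change 2.04 ± 0.33 SE, adjusted p = 1.3e-05). Isl1, which marks motor neurons and cardiac progenitors, went from 0.498, 0.387 and 0.441 to 1.96, 1.73 and 1.46 (1.95 ± 0.29 SE, adjusted p = 4.6e-06). Lmx1b, of dorsal limb and midbrain, went from 0.996, 0.774 and 0.693 to 2.32, 2.66 and 2.59 (1.62 ± 0.23 SE, adjusted p = 2.5e-06). All J2KO libraries lay above all J2WT libraries for these 3, at levels of at most a few CPM.

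Pou4f1 rose from 5.79, 5.29 and 5.48 to 11.8, 11.4 and 11.7 CPM and Pou4f2 from 1.37, 1.10 and 1.07 to 3.03, 3.53 and 2.46, by 1.08 ± 0.10 and 1.36 ± 0.21 (SE) on the log2 scale. En2 rose from 5.35, 5.74 and 6.11 to 12.4, 11.5 and 14.5 CPM, by 1.16 ± 0.11. Lhx6, a gene of forebrain interneurons, went from 1.31, 0.580 and 0.756 to 2.49, 2.60 and 2.52 CPM, by 1.52 ± 0.25, and Lhx2, of the forebrain and eye, changed by 1.24 ± 0.27, with adjusted p-values of 1.4e-05 and 3.6e-04.

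Hhex and Gsc went the other way. Hhex fell from 14.1, 14.6 and 11.5 CPM to 6.06, 7.19 and 5.57 (-1.08 ± 0.12 SE, adjusted p = 5.2e-08), and Gsc, an organizer gene, from 1.31, 1.35 and 1.39 to 0.713, 0.372 and 0.730 (-1.14 ± 0.29 SE, adjusted p = 0.0017). Without replicate 2 of J2KO ESCs the Gsc change was -0.90 on the log2 scale and no longer called. Trophoblast markers also fell, 3 of 3 tested, and summed to 15 to 17.0 CPM in J2KO and 43.3 to 44.3 in J2WT ESCs. Neuroectoderm markers summed to 67.8 to 70.4 against 42.1 to 43.0 CPM, with 1 of 3 tested called higher and 0 lower. The part of either list in the changes of the set was not tested.

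With no count minimum, 57 members could be fitted in the same comparison and 29 were called, 26 of them higher, where 10.3% of all genes were called either way. Several members were near the floor in J2WT ESCs. Dlx2 went from 2 to 25 reads, a ratio of 12.3 with a 95% counting interval of 3.08 to 108, and Emx1 also from 2 reads, to 27 (13.3, 3.35 to 116). En1 went from 3 to 32 (10.5, 3.29 to 53.8), and Irx5 from 2 to 24 (11.8, 2.94 to 103). Lhx9 went the other way, from 35 reads to 2, a ratio of 0.0564 (0.00658 to 0.220). Counting intervals here cover counting error only.

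In J2KO EpiLCs 5 of 18 members were higher, beside 6.23% of all 13781 genes, and 0 lower, beside 2.62% of all, 8.85% being called either way. DESeq2 also called 0 lower, and 2 members had a negative change at an unadjusted p under 0.05. The raised genes were Dlx3, Barx1, Nkx6-2, Lhx6 and En2.

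Dlx3, a gene of placenta and skin, was at 0.731, 0.798 and 0.766 CPM in J2WT EpiLCs and 5.03, 4.07 and 4.72 in J2KO (2.60 ± 0.21 SE, adjusted p = 1.7e-11). In ESCs it read 0.623, 0.645 and 0.819 and 0.831, 1.18 and 0.730, below the count minimum. The J2KO EpiLC libraries were its highest anywhere in the series.

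Nkx6-2 rose from 3.17, 2.64 and 3.58 to 11.5, 8.62 and 10.7 CPM in EpiLCs (1.73 ± 0.14 SE, adjusted p = 1.5e-11), while in ESCs its change was -0.38 ± 0.12 (SE). En2 rose from 18.1, 16.9 and 19.5 to 38.9, 39.8 and 37.0, by 1.11 ± 0.06, the highest En2 levels of any group. Barx1 rose from 0.366, 0.307 and 1.21 to 3.31, 2.43 and 2.65 CPM (2.18 ± 0.31) and Lhx6 from 1.46, 1.72 and 1.60 to 4.73, 4.01 and 3.23 (1.35 ± 0.19). En2, Barx1 and Lhx6 were called at both stages, and the stage difference of their J2KO effect was not called.

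Pax8 was also higher in J2KO EpiLCs, at 26.6, 24.3 and 26.9 CPM against 14.6, 15.5 and 13.0. Its log2 fold change, 0.87 ± 0.07 SE, adjusted p = 5.0e-11, was under the 2-fold limit. Meis2, raised in every other mutant, read 81.4, 84.0 and 77.3 CPM in J2KO ESCs and 7.98, 9.59 and 9.31 in J2KO EpiLCs, with log2 fold changes of 0.51 ± 0.05 and 0.28 ± 0.11 (SE), called in neither. Primitive endoderm markers, of which 3 of 4 tested were lower and Gata4 higher, summed to 7.5 to 8.14 CPM in J2KO and 21.4 to 22.8 in J2WT EpiLCs, and naive markers, 4 of 8 higher, to 439 to 449 and 272 to 287. Neuroectoderm markers, with 1 of 3 tested higher and 1 lower, summed to 30.8 to 31.9 and 52.9 to 55.0. The part of these lists was not tested.

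TKO ESCs had 2 of 11 members higher, beside 6.64% of all 12453 genes, and 0 lower, beside 7.09%. DESeq2 also called 0 lower, and 4 members had a negative change at an unadjusted p under 0.05. Pou4f2 rose from 0.873, 0.642 and 1.45 to 21.5, 22.3 and 17.1 CPM (4.33 ± 0.21 SE, adjusted p = 2.1e-12), its highest level in the series. Meis2 rose from 3.59, 4.17 and 3.78 to 9.07, 7.06 and 11.2 (1.22 ± 0.19 SE, adjusted p = 1.1e-05). The groups did not overlap for either gene. Primitive streak and mesoderm markers summed to 43.9 to 47.0 CPM in TKO and 16.6 to 18.1 in PclWT ESCs, with 2 of 3 tested higher, 1 (Mixl1) lower and Mesp1 at 0 in TKO, and their part was not tested.

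In TKO EpiLCs 8 of 17 members were higher, beside 6.88% of all 12869 genes, and 1 was lower, beside 7.18%. The higher genes were Pou4f2, Lhx1, Meis1, Pou4f3, Meis2, Irx5, Pax6 and Barx1, and the lower one was Msx2. All 9 were also called, in the same direction, without replicate 1 of PclWT EpiLCs, where 12.9% of all genes were called.

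Lhx1, a LIM gene of the head organizer and kidney, read 0, 0.102 and 0.200 CPM in PclWT EpiLCs and 5.87, 5.26 and 6.67 in TKO EpiLCs. The PclWT libraries held 3 Lhx1 reads together and the TKO libraries 164, a ratio of 56.5 with a 95% counting interval of 19 to 277, and the adjusted p was 3.6e-04. In every other group Lhx1 stayed at or below 1.25 CPM in each library.

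Pou4f2 was at 0.219, 0 and 0 CPM in PclWT EpiLCs and 5.96, 8.55 and 6.67 in TKO. The PclWT EpiLC libraries held 2 reads in all, so the ratio of 102 had a counting interval of 27.8 to 846 (adjusted p = 5.6e-04). Pou4f3, the POU4 gene of hair cells, rose from 0.219, 0.205 and 0.300 to 3.56, 5.05 and 4.54 CPM (4.06 ± 0.31 SE, adjusted p = 3.8e-04). Pou4f1 did not follow its relatives: its change was -0.18 ± 0.15 SE, adjusted p = 0.41.

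Meis1 rose from 0, 0.307 and 0.801 to 7.03, 7.52 and 6.81 CPM (4.15 ± 0.51 SE, adjusted p = 0.0017), and Meis2 from 1.20, 2.56 and 2.40 to 17.7, 18.4 and 18.2 (3.08 ± 0.24 SE, adjusted p = 3.8e-04). Without replicate 1 of PclWT EpiLCs, their log2 fold changes were 3.64 and 2.84. Both MEIS genes were far above every PclWT library.

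Irx5 rose from 1.75, 1.23 and 2.00 to 6.41, 6.29 and 4.68 CPM (1.77 ± 0.25 SE, adjusted p = 0.0026). Irx3, its neighbor, read 9.63, 5.32 and 4.70 and 8.81, 9.27 and 10.4, overlapping in replicate 1 of PclWT, with a change of 0.49 ± 0.28 (SE). Without that replicate the Irx3 change was 0.89 ± 0.16 (SE, adjusted p = 7.7e-05), under the 2-fold limit. Pax6, the eye and neural tube gene, rose from 1.53, 1.74 and 1.20 to 4.45, 3.40 and 3.69 CPM (1.33 ± 0.23 SE, adjusted p = 0.0057). Barx1 went from 1.31, 1.33 and 1.5 to 2.85, 4.43 and 2.13 CPM and Msx2 from 2.30, 2.56 and 2.10 to 0.801, 0.927 and 1.70, without overlap. Barx1 (1.16 ± 0.32, adjusted p = 0.031) and Msx2 (-1.12 ± 0.31, adjusted p = 0.031) were the calls nearest the threshold, and both were lost with the replicate number as a block (adjusted p = 0.055 and 0.068). Barx1 kept its call in 6 of 11 alternatives (adjusted p up to 0.097) and Msx2 in 6 of 10 (up to 0.13), the losses besides the block being without single PclWT or TKO EpiLC libraries.

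**Figure D4:**
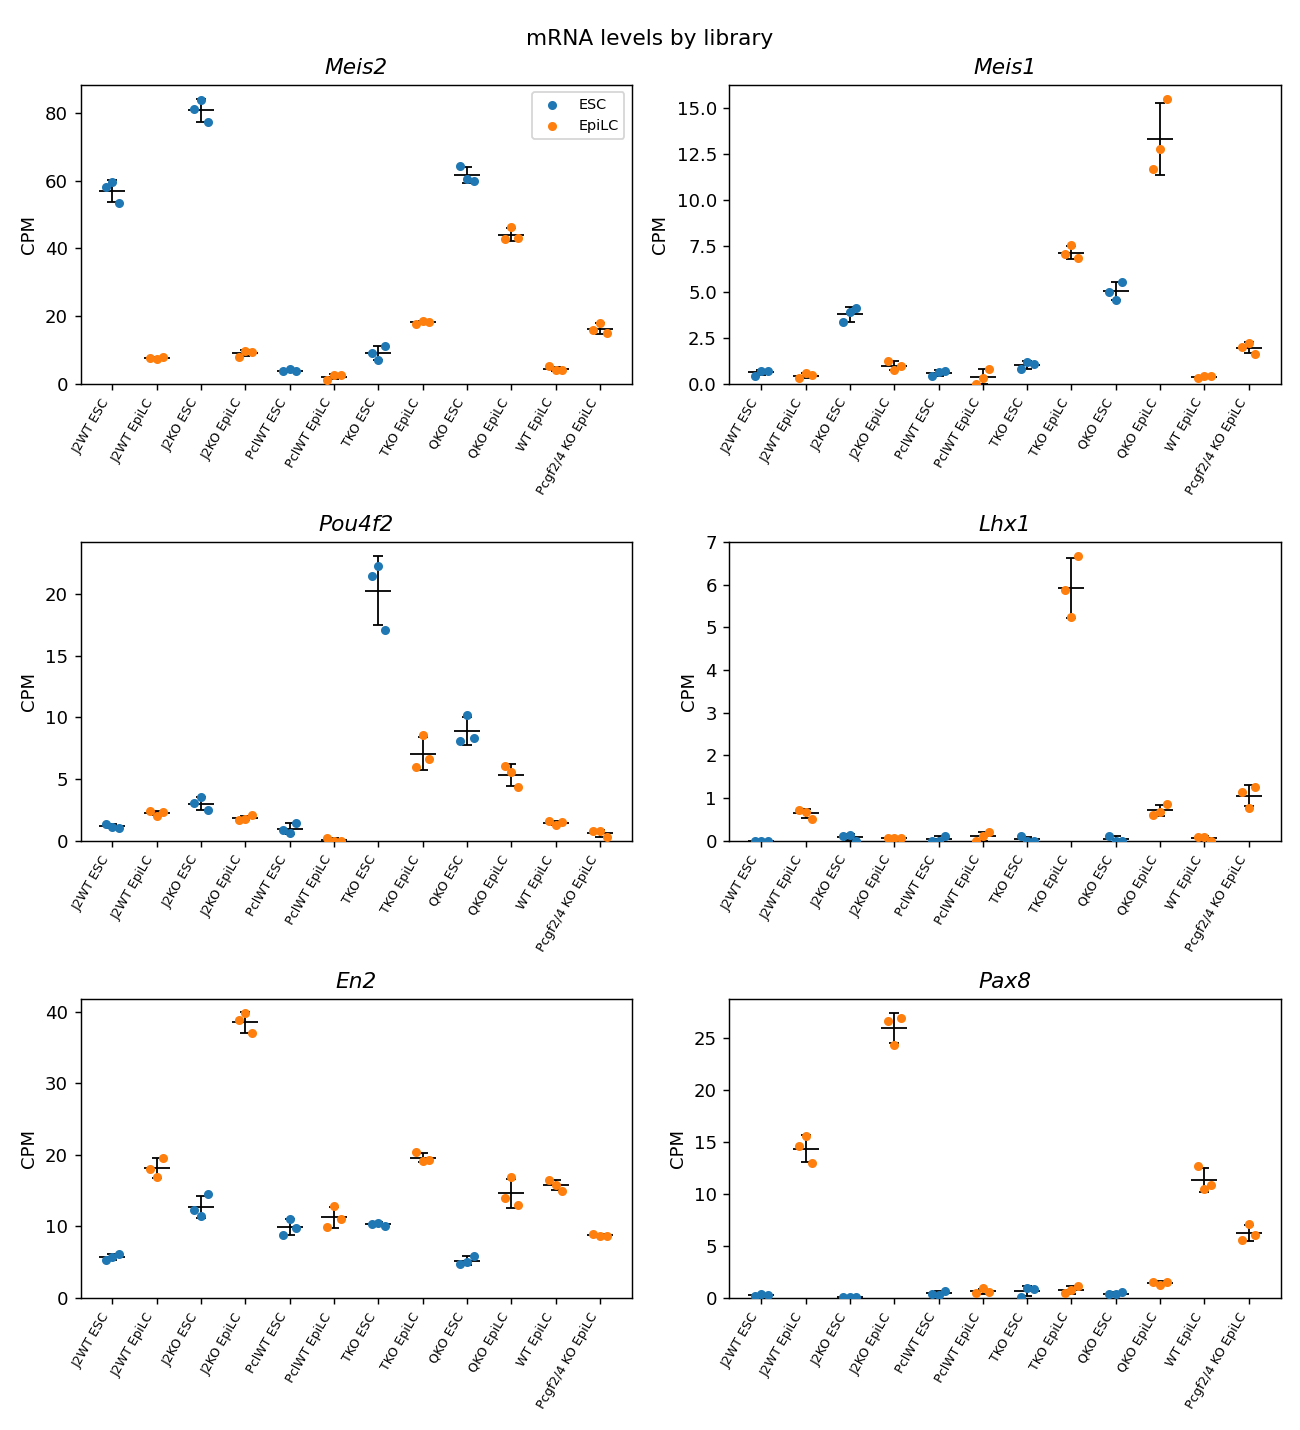
CPM of 6 members in each library (points, blue for ESCs and orange for EpiLCs), with the mean and SD of the 3 libraries of each group in black. Meis2 is high in J2WT, J2KO and QKO ESCs and in QKO EpiLCs, and Meis1 is highest in QKO EpiLCs. Lhx1 is high in TKO EpiLCs and Pax8 in J2WT, J2KO, WT and Pcgf2/4 KO EpiLCs.

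Primitive endoderm markers moved in the same cells. All 6 of Gata4, Gata6, Sox17, Sox7, Pdgfra and Dab2 were called higher in TKO EpiLCs, and their summed level was 103 to 114 CPM there against 15.4 to 21.4 in PclWT EpiLCs, with no marker at 0 throughout a group. Of the same primitive endoderm markers, 4 of 5 tested were higher in QKO EpiLCs and their sum was 51.0 to 53.6 CPM. Neuroectoderm markers did not move together: in TKO EpiLCs 1 of 3 tested was higher (Sox1) and 1 lower (Olig2), with a sum of 121 to 129 CPM against 32.6 to 41.5, and in QKO EpiLCs 1 was higher and 2 lower, with a sum of 59.0 to 66.7. Of 8 naive markers, 4 were higher in TKO and 6 in QKO EpiLCs and 1, Klf2, was lower in each, with sums of 565 to 627 and 1259 to 1370.1 CPM against 374 to 467. Formative markers summed to 2155 to 2302 CPM in TKO and 2763 to 3146 in QKO EpiLCs, against 952 to 1121 in PclWT EpiLCs. In TKO 3 of 6 tested were higher and 0 lower, and in QKO 2 of 5 were higher and 1 lower. The part of these markers' cells, or of the low formative level of PclWT EpiLCs, in the changes of the set was not tested.

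QKO cells, which share their PclWT controls with TKO, had 3 of 13 members higher in ESCs (6.16% of all 12302 genes) and 1 lower (7.66%), and 5 of 16 higher in EpiLCs (6.51% of all 12897) and 1 lower (7.22%). Meis2, Meis1 and Pou4f2 were higher at both stages. Barx1 and Lhx2 were higher in EpiLCs. Msx2 was lower in ESCs and Nkx6-2 in EpiLCs.

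Meis2 reached 64.3, 60.6 and 60.1 CPM in QKO ESCs against 3.59, 4.17 and 3.78 in PclWT (4.01 ± 0.10 SE, adjusted p = 6.1e-15), and 42.9, 46.4 and 43.1 in QKO EpiLCs against 1.20, 2.56 and 2.40 (4.39 ± 0.23 SE, adjusted p = 1.2e-04). Meis1 reached 4.98, 4.57 and 5.54 CPM in ESCs (3.15 ± 0.27 SE, adjusted p = 2.5e-08) and 11.7, 12.8 and 15.5 in EpiLCs (5.07 ± 0.49 SE, adjusted p = 6.4e-04), its highest in the series. QKO libraries lay above all PclWT libraries for both genes at both stages.

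Pou4f2 read 8.11, 10.2 and 8.37 CPM in QKO ESCs (3.16 ± 0.24 SE, adjusted p = 4.2e-09) and 6.08, 5.54 and 4.36 in QKO EpiLCs, where the ratio to the 2 PclWT reads was 76.0 (20.7 to 633). Msx2 fell to 2.55, 2.92 and 3.15 CPM in QKO ESCs from 8.63, 8.24 and 8.68 (-1.56 ± 0.16 SE, adjusted p = 2.7e-07). Lhx2 was at 2.74, 3.05 and 2.48 CPM in QKO EpiLCs against 1.31, 0.819 and 0.50 (1.63 ± 0.33 SE, adjusted p = 0.01), and Barx1 at 4.15, 4.98 and 3.68 against 1.31, 1.33 and 1.5 (1.60 ± 0.22 SE, adjusted p = 0.0022). Nkx6-2 changed by -1.04 ± 0.28 SE, adjusted p = 0.027, and this call was lost without any single QKO EpiLC library. Without replicate 1 of PclWT EpiLCs the 5 higher genes were called again, beside 13.5% of all genes called, and Nkx6-2 fell under the count minimum.

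QKO, which lacks JARID2 as well, was compared directly with TKO. The loss of JARID2 and any other difference between these lines cannot be told apart here. In ESCs 4 of 15 members were higher in QKO (1.37% of all 12169 genes) and 2 lower (3.21%), with 4.59% of all genes called either way. In EpiLCs 2 of 17 were higher (1.52% of all 12762) and 4 lower (3.3%), with 4.82% called either way.

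The MEIS genes were higher in QKO. In ESCs Meis2 was at 9.07, 7.06 and 11.2 CPM in TKO and 64.3, 60.6 and 60.1 in QKO (2.75 ± 0.10 SE, adjusted p = 9.2e-14), and Meis1 at 0.806, 1.19 and 1.05 and 4.98, 4.57 and 5.54 (2.30 ± 0.24 SE, adjusted p = 2.9e-07). In EpiLCs the changes were 1.26 ± 0.07 for Meis2, which was called, and 0.89 ± 0.14 for Meis1, under the 2-fold limit. Pitx1, a hindlimb gene with 10.3% of its exon bases shared, went from 1.11, 0.760 and 0.733 CPM in TKO to 2.66, 1.91 and 3.15 in QKO ESCs (1.56 ± 0.30 SE, adjusted p = 3.8e-04). Isl2, a motor neuron gene, went from 0.806, 0.869 and 1.36 to 2.20, 2.41 and 2.50 (1.21 ± 0.29 SE, adjusted p = 0.002). In EpiLCs Lhx2 went from 1.16, 0.618 and 1.28 to 2.74, 3.05 and 2.48 (1.42 ± 0.29 SE, adjusted p = 3.7e-04). No TKO library reached the QKO libraries for these 3.

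Other genes were lower in QKO than in TKO. Lhx1 stood at 0.608, 0.678 and 0.855 CPM in QKO EpiLCs against 5.87, 5.26 and 6.67 in TKO (-3.02 ± 0.26 SE, adjusted p = 2.2e-09), and Pou4f3 at 0.709, 0.791 and 0.941 against 3.56, 5.05 and 4.54 (-2.40 ± 0.27 SE, adjusted p = 2.2e-07). In the same cells Irx5 was at 2.33, 2.71 and 1.80 in QKO (-1.41 ± 0.21) and Irx3 at 4.46, 4.75 and 3.59 (-1.17 ± 0.16). The groups did not overlap for any of these 4. Pou4f2 (-1.20 ± 0.13) and Nkx6-2 (-1.28 ± 0.17) were lower in QKO than TKO ESCs, Nkx6-2 at 3.24, 4.19 and 3.26 against 8.77, 8.14 and 8.80 CPM. Primitive endoderm markers were lower too, 3 of 6 called, and their part was not tested.

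Pcgf2/4 KO EpiLCs had 3 of 13 members higher, beside 1.96% of all 12754 genes, and 0 lower, beside 3.84% of all, 5.8% being called either way. DESeq2 also called 0 lower, and 3 members had a negative change at an unadjusted p under 0.05. Meis2 rose from 5.08, 4.11 and 4.06 to 15.9, 18.0 and 14.9 CPM (1.90 ± 0.13 SE, adjusted p = 8.4e-16). Irx2 rose from 2.96, 2.44 and 3.58 to 9.45, 7.76 and 7.88 (1.5 ± 0.17 SE, adjusted p = 7.2e-10) and Lhx2 from 1.02, 0.587 and 0.871 to 2.65, 2.52 and 3.08 (1.74 ± 0.29 SE, adjusted p = 2.9e-06).

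The Pcgf2/4 KO libraries were above all WT EpiLC libraries for these 3 genes. En2 and Pax8 were lower, at 8.98, 8.63 and 8.65 CPM against 16.5, 15.8 and 15 and 5.58, 7.08 and 6.06 against 12.7, 10.5 and 10.8, by -0.83 ± 0.11 and -0.84 ± 0.13 (SE), within the 2-fold limit. Meis1, below the count minimum there, read 1.99, 2.23 and 1.63 CPM against 0.277, 0.391 and 0.387. Primitive endoderm markers summed to 25.6 to 28.0 CPM against 8.41 to 11.4, and naive markers, 7 of 8 higher, to 624 to 694 against 310.2 to 319.9. Neuroectoderm markers, 1 of 2 tested lower, summed to 28.7 to 31.3 against 61.3 to 65.2, and fibroblast markers, 2 of 2 lower, to 1.42 to 1.45 against 6.84 to 10.3. The part of these lists was not tested.

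Whether a mutant's effect differed between stages was tested as an interaction. For J2KO 4 of 19 members had a more positive effect in EpiLCs (6.0% of all genes) and 6 a more negative one (5.31%). For TKO 2 of 14 members, Meis1 and Meis2, were more strongly raised in EpiLCs, beside 4.27% of all genes with a more positive effect and 7.48% called either way. For QKO 3 of 13 had a more positive effect in EpiLCs (5.0% of all genes, with 7.31% called either way): Pou4f2, En2 and Msx2. En2 changed by -0.90 ± 0.15 in QKO ESCs and 0.35 ± 0.16 in QKO EpiLCs, and Msx2 by -1.56 ± 0.16 and -0.34 ± 0.22 (SE, log2).

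The 6 members near sites that gain PRC2 behaved unalike across the mutants. Meis2 was called higher in TKO and QKO at both stages and in Pcgf2/4 KO EpiLCs, Pou4f2 in TKO and QKO at both stages and in J2KO ESCs, Irx2 in Pcgf2/4 KO EpiLCs, and Pou4f1 in J2KO ESCs. Msx2 and Hhex were called higher in no mutant and lower in TKO EpiLCs and QKO ESCs (Msx2) and in J2KO ESCs (Hhex). Irx2 in J2KO EpiLCs, at 4.48, 4.86 and 5.17 CPM against 2.68, 2.15 and 2.68, changed by 0.97 ± 0.16 SE, adjusted p = 5.5e-06, just inside the 2-fold limit.

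Six4, the most abundant member, was called in no mutant. Its log2 fold changes against the matched WT lay between -0.45 in TKO ESCs and 0.06 in J2KO ESCs. Without replicate 1 of PclWT EpiLCs they were -0.53 in TKO and -0.52 in QKO EpiLCs, where they had been -0.34 and -0.28, and were not called. The DLX family held only Dlx3 above the minimum, the NKX family only Nkx6-2, and the PAX family only Pax6 and Pax8. SIX2, SIX3 and SIX6 factors act in kidney, forebrain and eye, and of their genes only Six2 was tested, in QKO against TKO EpiLCs (0.29 ± 0.27, adjusted p = 0.42). Of the members without a test, Lmx1a, a midbrain gene, had the highest mean, 2.02 CPM in TKO ESCs, and Nkx2-5, the cardiac gene, the most reads, 247 over the 36 libraries.

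A list of 70 further homeobox genes outside Hox gave the background of the class. Counts of those tested, higher and lower were 21, 7 and 6 for WT EpiLCs against ESCs, 21, 9 and 6 for J2KO in ESCs and 18, 5 and 2 in EpiLCs. They were 16, 7 and 3 for TKO in ESCs, 19, 6 and 2 in EpiLCs, 19, 9 and 4 for QKO in ESCs, 18, 6 and 1 in EpiLCs, and 12, 3 and 2 for Pcgf2/4 KO. In TKO ESCs 62.5% of those tested were called, against 18.2% of the 11 members tested. These shares were 61.9% and 66.7% for the WT stage change. In ESCs they were 71.4% and 68.8% for J2KO and 68.4% and 30.8% for QKO. In EpiLCs they were 38.9% and 27.8% for J2KO and 42.1% and 52.9% for TKO. For QKO EpiLCs they were 38.9% and 37.5%, and for Pcgf2/4 KO 41.7% and 23.1%. The difference between the lists was not tested. The largest changes of the list of 70 included Otx2, an anterior epiblast gene, at 6.76 ± 0.28 (SE, log2) in QKO ESCs. They also included Gsx1, a forebrain gene, at 5.09 ± 0.24 in TKO EpiLCs.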

How the data were processed

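RNA was measured by poly(A)-selected, unstranded sequencing. The authors aligned reads to GRCm38 with STAR and deposited its raw counts per gene, of which the unstranded column was used. The rows of unassigned reads, 23.2% to 30.2% of the total of those rows and the gene counts, were left out. Symbols, exon lengths and overlaps came from GENCODE M21. Without strand, reads on exon bases that a gene shares with an overlapping gene, such as an antisense partner, cannot be assigned and were not counted. Six3, Dlx1, Dlx4, Dlx6, Irx3, Emx2, Evx1 and Nkx2-2 have an antisense partner and share exon bases with overlapping genes. Pax6 has such a partner, Pax6os1, but 0 of its exon bases are shared.

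The counts were fitted with edgeR 4.0.16 (quasi-likelihood, TMM) in R 4.3.3, over the libraries of each comparison with a mean of at least 15 normalized counts per gene, and the call rule was an adjusted p under 0.05 and a change over 2-fold. The scripts were tested on simulated counts. DESeq2 1.42.0, RLE scaling, a minimum of 5 or none, the replicate number as a block, each WT line alone and leaving out each library were alternatives. Library values are given for called members, at most the 6 with the largest change per direction and comparison, and for members at 1 RPKM or more. Others are named for their family, level or place near a threshold, after their values were seen. Intervals of count ratios are exact, at 95%, with a floor of 3 counts. Members and lists were chosen with earlier results of these data known.

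Replicate numbers are shared between groups, and the deviations of same-numbered libraries were compared. Correlations were 0.382, 0.190 and 0.159 between PclWT ESCs and EpiLCs, a pairing seen in the data and not given by the labels. The main fits held no replicate term, so their SEs and p-values do not use this pairing. The replicate block was run only as an alternative. No other pair of groups had all 3 above 0.1. Promoter windows came from RefSeq on GRCm38.p6.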

Additional observations from a re-analysis of the deposited data

Results flagged for a closer look

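Stage differences of the mutant effects, and line differences of the WT stage change, were tested as interaction terms in edgeR, and 24 passed the call rule. Mutant values are the effect in EpiLCs minus that in ESCs, on the log2 scale with its SE.

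For J2KO, 10 of 19 members tested differed between stages, beside 11.3% of all genes called. The effect was more positive in EpiLCs for Pax8 (2.57 ± 0.68), Dlx3 (2.17 ± 0.40), Nkx6-2 (2.08 ± 0.19) and Irx2 (1.14 ± 0.17). It was more negative in EpiLCs for Irx3 (-2.81 ± 0.65), Msx1 (-2.69 ± 0.47), Lmx1b (-2.14 ± 0.50), Pou4f2 (-1.64 ± 0.29), Meis1 (-1.47 ± 0.47) and Pou4f1 (-1.22 ± 0.17). Pax8 in ESCs read 0.119, 0.0620 and 0.0664 CPM in J2KO against 0.187, 0.387 and 0.315 in J2WT. Irx3 read 0.0623, 0 and 0.126 CPM in J2WT ESCs, from 1, 0 and 2 reads, and 0.475, 0.434 and 0.4645 in J2KO ESCs. In EpiLCs Irx3 overlapped, at 3.53, 4.05 and 4.34 CPM in J2WT and 3.99, 3.70 and 3.49 in J2KO. Msx1, a craniofacial gene, read 0.374, 0.322 and 0.189 CPM in J2WT and 1.25, 0.681 and 1.19 in J2KO ESCs, and 1.71, 1.60 and 1.79 and 0.982, 1.09 and 0.647 in EpiLCs.

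For TKO, Meis1 (3.33 ± 0.74) and Meis2 (1.86 ± 0.32) were more strongly raised in EpiLCs, beside 7.48% of all genes called. For QKO, Pou4f2 (2.86 ± 0.80), En2 (1.29 ± 0.21) and Msx2 (1.25 ± 0.23) differed, beside 7.31%. Without replicate 1 of PclWT EpiLCs, Irx3 (2.16) and Pou4f2 (4.73) were added for TKO and Lhx2 (1.93) for QKO, and the 5 above were called again, Pou4f2 for QKO at 5.47 in place of 2.86. That Pou4f2 call was kept in 8 of 17 alternatives, with values from 2.31 to 5.47.

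The stage change of the WT lines (PclWT minus J2WT) differed for 9 of 12 members, beside 21.5% of all genes. The difference was negative for Pax8 (-5.06 ± 0.58), Irx3 (-2.73 ± 0.88), Lhx6 (-1.83 ± 0.47), En2 (-1.49 ± 0.17) and Six4 (-1.01 ± 0.26). It was positive for Msx2 (3.97 ± 0.41), Irx2 (2.30 ± 0.25), Meis2 (2.02 ± 0.26) and Hhex (1.29 ± 0.23). Without replicate 1 of PclWT EpiLCs, Six4 changed to -0.77 and was no longer called, and Pou4f2 was added at -7.61. Pou4f2 had 2 reads in PclWT EpiLCs, all in replicate 1, so its fitted values without that library depend on the prior count and are no measure of size. In the same contrast the difference was called negative for 5 of 6 formative markers (median -2.53) and positive for 3 of 8 naive markers. Line, the depth of the libraries and a smaller stage change in PclWT cannot be told apart here.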

How the results depend on the processing

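None of the 84 calls of single members over the 14 tests reversed its direction under the alternatives run, and members that were not called were not followed. Of these, 83 were kept with DESeq2, 83 with RLE scaling, 84 with a minimum of 5 and 84 with no minimum, while 648 of 679 were kept over the fits that left out 1 library.

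The count minimum moved the number of members called most, since more members were tested. With a minimum of 5, members called of those tested, with the share of all genes called, were 15 of 26 for the WT stage change (23.3%), 17 of 25 for J2KO ESCs (16.3%), 10 of 29 for J2KO EpiLCs (11.4%), 8 of 27 for TKO ESCs (16.6%), 11 of 29 for TKO EpiLCs (15.3%), 9 of 27 for QKO ESCs (16.8%), 10 of 26 for QKO EpiLCs (14.7%), 10 of 27 for QKO against TKO ESCs (6.32%), 7 of 32 for QKO against TKO EpiLCs (6.34%) and 7 of 21 for Pcgf2/4 KO (8.12%). The interactions gave 14 of 31 for the J2KO stage difference (11.8%), 6 of 31 for the TKO stage difference (6.91%), 4 of 26 for the QKO stage difference (6.84%) and 15 of 26 for the line difference (20.6%). With no minimum they were 19 of 57 for the WT stage change (15.2%), 29 of 57 for J2KO ESCs (10.3%), 12 of 57 for J2KO EpiLCs (7.11%), 8 of 56 for TKO ESCs (10.4%), 12 of 57 for TKO EpiLCs (9.26%), 10 of 54 for QKO ESCs (10.5%), 13 of 57 for QKO EpiLCs (8.7%), 10 of 56 for QKO against TKO ESCs (3.75%), 10 of 57 for QKO against TKO EpiLCs (3.85%) and 10 of 55 for Pcgf2/4 KO (4.82%). The interactions then gave 18 of 58 for the J2KO stage difference (6.06%), 6 of 57 for the TKO stage difference (3.92%), 7 of 57 for the QKO stage difference (3.95%) and 16 of 57 for the line difference (10.3%). The WT stage change called 3 members with PclWT libraries alone.

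Leaving out 1 library gave 7 to 9 members for the WT stage change, 10 to 11 and 5 to 7 for J2KO in ESCs and EpiLCs, 2 to 4 and 7 to 9 for TKO, 4 to 6 and 5 to 6 for QKO, 4 to 6 and 6 to 7 for QKO against TKO, and 3 for Pcgf2/4 KO. For the stage differences it gave 9 to 11 for J2KO, 2 to 4 for TKO and 2 to 5 for QKO, and 7 to 10 for the line difference. The 4 for TKO ESCs came without replicate 3 of TKO ESCs, the 4 for the TKO stage difference without replicate 1 of PclWT EpiLCs, and the 5 for QKO without replicate 3 of PclWT EpiLCs.

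With the replicate number as a block, TKO EpiLCs had 7 members called in place of 9 and the QKO stage difference 2 in place of 3 (Pou4f2 was lost, adjusted p = 0.052), and no other pairing changed a call. Depth limits the set: 31 of the 58 members were below the minimum in all 10 comparisons of 2 conditions, so they were compared with a lower minimum or as count ratios with wide intervals.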
